A study of Homo sapiens with 5 samples.

Results

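The genes described here are 37 reported or predicted targets of the miR-17~92 microRNA cluster, taken by symbol from a list of miR-17, miR-19 and miR-92 targets. All 37 were in the deposited table of 18257 genes, and all 37 were among the 12234 genes that had 1 CPM (counts scaled to a common library size) or more in 2 or more of the 5 libraries. The study sequenced poly(A) RNA from HEK293 cells, a human embryonic kidney line, after knockdown of DICER1 or DROSHA, asking how binding by Dicer affects gene regulation. All 5 libraries came from the line HEK293 T-Rex FLAG:DICER1 FLP-IN, which carries a FLAG-tagged DICER1 in its controls too. There was 1 mock library with no further treatment named, 1 library each for DICER1 siRNA 1 and siRNA 2, and 1 each for DROSHA siRNA 1 and siRNA 2, with 18 h given as the time. The 2 libraries of a knockdown therefore differ in the siRNA molecule, and whether they were separately grown cultures is not stated. The p-values reflect the spread among these particular libraries alone. That spread includes the difference between the siRNA molecules, and the rest of it may be technical.

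MicroRNAs are short RNAs that guide Argonaute proteins to partly matching sites, mostly in 3′ untranslated regions (UTRs), where they lower translation and mRNA stability. DROSHA cuts the primary transcript in the nucleus and DICER1 cuts the resulting hairpin in the cytoplasm, so both enzymes lie on the path to a mature microRNA. The miR-17~92 transcript holds several hairpins whose products promote proliferation and survival, and their reported targets include pocket proteins, the death-promoting BCL2 family member BIM and parts of the TGF-beta pathway. A microRNA recognises its sites mainly through its seed, the bases near its 5′ end.

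The mature sequences are shown because the seeds, given in capitals (bases 2 to 8), define the matches searched for below. The 6 microRNAs of the cluster lie at chr13:91350618-91351382 (GRCh38.p14, plus strand), and the last 3 sequences come from the paralogous miR-106b~25 cluster in an intron of MCM7 on chromosome 7 (minus strand). All are from RefSeq.
miR-17-5p: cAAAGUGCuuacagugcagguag
miR-20a-5p: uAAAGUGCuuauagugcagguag
miR-18a-5p: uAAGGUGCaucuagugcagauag
miR-19a-3p: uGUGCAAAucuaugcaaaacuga
miR-19b-3p: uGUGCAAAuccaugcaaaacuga
miR-92a-3p: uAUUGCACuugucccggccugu
miR-106b-5p: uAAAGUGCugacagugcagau
miR-93-5p: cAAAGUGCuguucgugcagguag
miR-25-3p: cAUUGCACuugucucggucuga
By seed these form 4 families. miR-17, miR-20a, miR-106b and miR-93 share AAAGUGC, miR-19a and miR-19b share GUGCAAA, miR-92a and miR-25 share AUUGCAC, and miR-18a has AAGGUGC. Apart from miR-18a and the miR-19 pair, each seed of the first cluster is thus also encoded in the second. The mature microRNAs themselves were not analysed here.

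The longest annotated 3′ UTR of each gene (GENCODE 29 on GRCh38) was searched, on the transcript strand, for the complement of each seed. The longest match, called an 8mer, is GCACTTTA for the miR-17 family, GCACCTTA for miR-18, TTTGCACA for miR-19 and GTGCAATA for the miR-92 family. The shorter matches drop its last base (GCACTTT for miR-17) or its first (CACTTTA). The targets carried miR-17 matches far more often than the transcriptome at large. A miR-17 8mer stood in 21 of 37 targets (56.8%), against 672 of 12088 tested genes with a UTR (5.56%), and any miR-17 match in 35 targets (94.6%), against 32.6% of all. Per kilobase of UTR the targets held 0.233 miR-17 8mers and all genes 0.0282, so the excess is also seen per length, the UTRs of the targets being longer (median 2421 nt against 1451 nt). The other seeds differed less. Any miR-19 match occurred in 48.6% of targets and 23.0% of genes, any miR-92 match in 40.5% and 21.6%, and any miR-18 match in 24.3% and 16.6%. PHLPP1 had no match to any of the 4 seeds and HIPK3 had none to miR-17. The targets were listed partly because of predicted sites, so this excess describes the list and is not a finding about the cells.

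**Figure D1:**
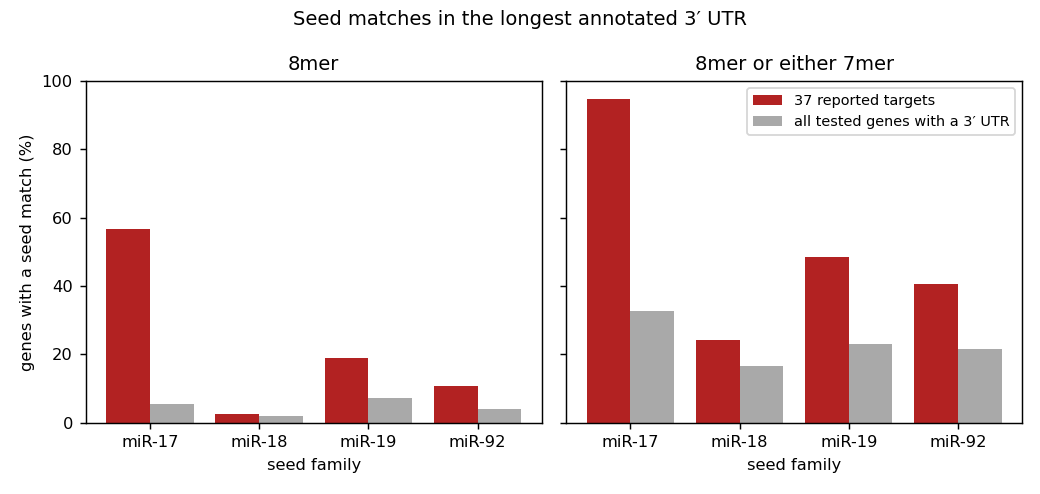
Share of genes (%, vertical axis) with a match to each seed family in the longest annotated 3′ UTR, for the 37 targets (red) and all 12088 tested genes with a UTR (grey); left, 8mers only, right, any of the match types. The miR-17 8mer shows the widest gap, 56.8% against 5.56%.

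The miR-17 8mers of 8 targets that recur in the results are each given as 30 bases of mRNA-sense sequence 5′ to 3′ ending with the match, which is in capitals. The first 7 genes lay above the mock in every siRNA library, and SQSTM1 is shown because it did not.
RBL2: gagtgaacctgtataagtggagGCACTTTA
MINK1: accatttcttcattttctgaaaGCACTTTA
FYCO1: ggaaggctcaacatttggaattGCACTTTA
ZNFX1: atttacccctgcgctagagtaaGCACTTTA
RAB5B: ccaccatatacccctgcagtttGCACTTTA
TGFBR2: tttacaatagccaataacatttGCACTTTA
ULK1: cccagctttgtcaatcacccaaGCACTTTA
SQSTM1: acaatctaattaaatggcatcaGCACTTTA
All lie in 3′ UTRs, and positions are on GRCh38. The RBL2 stretch is chr16:53490912-53490941 (plus strand), that of MINK1 chr17:4897759-4897788 (plus) and that of FYCO1 chr3:45918139-45918168 (minus). The ZNFX1 stretch is the first of 2 in its UTR, chr20:49246776-49246805 (minus). Those of RAB5B and TGFBR2 are chr12:55993154-55993183 and chr3:30691845-30691874, both on the plus strand. Those of ULK1 and SQSTM1 are chr12:131921814-131921843 and chr5:179837220-179837249, also on the plus strand. ENPP5, EZH1, PKD2, PTPN4 and ZFYVE26 also held 2 miR-17 8mers each. In the shortest annotated UTR of each gene a miR-17 8mer remained in 7 targets, and which UTR the cells use was not analysed here.

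The libraries held 7620206 to 8736455 counts, and the knockdowns were visible in the targeted mRNAs. CPM values were scaled by TMM factors. DICER1 mRNA had 243 CPM in the mock, with 74.1 and 67.7 in its siRNA libraries (log2 fold change -1.78, edgeR quasi-likelihood adjusted p = 0.026), and DROSHA mRNA had 191 CPM in the mock, with 41.2 and 41.9 in its own (-2.20, edgeR adjusted p = 0.000882). MCM7, the host gene of miR-106b~25, lay between 1234 and 1289 CPM in all 5 libraries. Of 10 markers of the HEK293 line 8 were at 1 CPM or more in every library and PAX8 was under 1 CPM in all, while of 10 markers of blood, liver, fibroblast, endothelial and muscle cells 9 were under 1 CPM in all, PTPRC was at 0 and COL1A1 lay between 5.38 and 7.35 CPM. DROSHA siRNA 2 stood apart from the other libraries, including DROSHA siRNA 1 (chi-square per degree of freedom 8.0, against 2.73 for the DICER1 pair). In bulk RNA, fewer cells of a type and less RNA per cell cannot be told apart.

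No target passed the test in any comparison. Of all tested genes, only mRNAs targeted by the siRNAs passed edgeR's quasi-likelihood test. They were DICER1 in DICER1 against mock, DROSHA in DROSHA against mock and both knockdowns against mock, and both in DICER1 against DROSHA. In edgeR's quasi-likelihood test 0 of 37 were called in DICER1 against mock, DROSHA against mock and both knockdowns against mock, where 0.00817% of all tested genes were called in each, and 0 in DICER1 against DROSHA, where 0.0163% were. The counts of targets with an unadjusted p under 0.05 were 5, 7, 5 and 5 in that order (13.5%, 18.9%, 13.5% and 13.5%), where 5.46%, 3.69%, 3.69% and 8.34% of all tested genes had one. edgeR's likelihood ratio test also called 0 targets in each, with 7, 6, 5 and 5 targets at an unadjusted p under 0.05, against 5.56%, 3.78%, 3.71% and 8.48% of all genes. DESeq2 called 0 as well, with 1, 3, 2 and 3 such targets, against 1.52%, 0.654%, 0.678% and 3.07% of all genes. The smallest adjusted p of a target in the quasi-likelihood test was 0.865, 0.978, 0.972 and 0.443. All values below are therefore described as levels and differences that did not pass this test, and the 3 comparisons with the mock share its single library.

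Without a call on any gene, the list leaned upward. Its members were chosen with earlier results of these data known, so the shares below describe the list and are no independent evidence. The median log2 fold change of the 37 targets was 0.081 in DICER1 against mock and 0.098 in DROSHA against mock, a median fold of 1.06 and 1.07, where the medians of all tested genes were 0.0005 and -0.0049. Single targets ranged from -0.79 to 0.51 with DICER1 siRNA and from -0.46 to 0.53 with DROSHA siRNA. Against the mock, 25, 23, 24 and 27 of 37 targets were higher in DICER1 siRNA 1, DICER1 siRNA 2, DROSHA siRNA 1 and DROSHA siRNA 2. Both DICER1 libraries lay above the mock for 21 targets (56.8%) and below it for 10, where 36.7% and 36.4% of all tested genes did so. Both DROSHA libraries lay above it for 21 targets and below it for 7, against 31.5% and 32.5% of all genes. All 4 siRNA libraries lay above the mock for 15 targets (40.5%) and below it for 6 (16.2%), against 19.4% and 19.1%. With 1 library left out in turn the first of these counts lay between 15 and 19. Fewer libraries make such a count larger by construction, so this range does not measure its stability. The 15 were RBL2, MINK1, FYCO1, VLDLR, BCL2L11, TGFBR2, ZFYVE26, ZNFX1, PKD1, RAB5B, ULK1, EZH1, HBP1, ENPP5 and PHLPP2, and the 6 were SMAD4, SMAD5, SMAD7, STAT3, CRIM1 and TP53INP1. Between the knockdowns the targets showed no common direction, with a median of -0.017. Here 11 were higher in both DICER1 than in both DROSHA libraries and 9 were lower, against 20.9% and 20.0% of all genes.

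**Figure D2:**
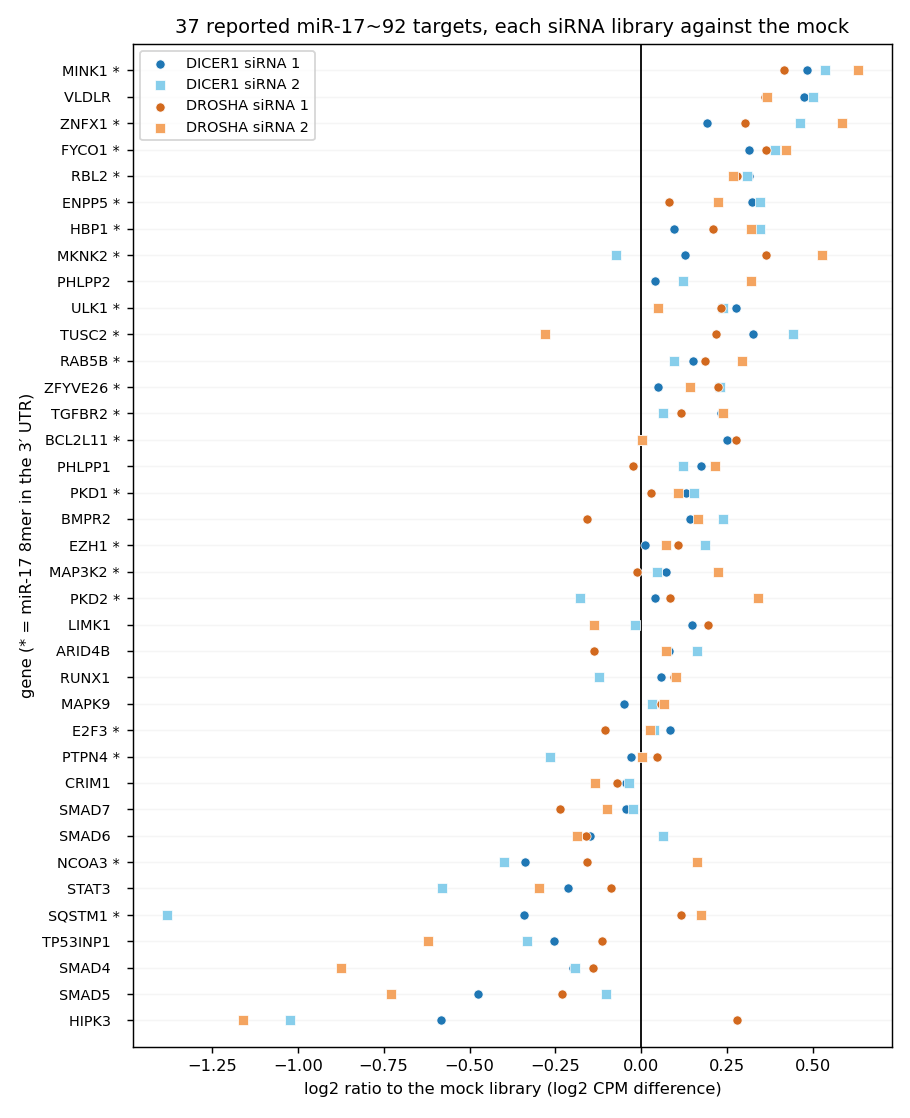
Log2 ratio to the mock (horizontal axis) of each of the 37 targets (vertical axis, ordered by the mean of both knockdowns) in each siRNA library: circles, siRNA 1; squares, siRNA 2; blue, DICER1; orange, DROSHA. Asterisks mark a miR-17 8mer; the upper rows, MINK1 to ULK1, hold mostly points right of 0, and HIPK3 and SQSTM1 show the widest spread between libraries.

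The direction of the targets differed with the miR-17 8mer. Of the 21 targets with one, 13 lay above the mock in all 4 siRNA libraries (61.9%) and 0 lay below it in all 4. Of the 16 without one, only VLDLR and PHLPP2 lay above it in all 4, and 6 lay below it. These 6 all hold shorter miR-17 matches, so targets without an 8mer are not targets without a site. By any miR-17 match, 35 targets had one, among them all 15 above the mock in all 4 and all 6 below. Over all genes the medians with and without any miR-17 match were -0.001 and 0.0014 in DICER1 against mock. In DROSHA against mock they were -0.0003 and -0.0069. The median log2 fold change with the 8mer was 0.14 in DICER1 against mock and 0.16 in DROSHA against mock, and without it -0.033 and -0.066. The same order held in each library: medians with the 8mer were 0.13, 0.15, 0.18 and 0.22 in DICER1 siRNA 1 and 2 and DROSHA siRNA 1 and 2, and without it -0.045, -0.022, -0.080 and -0.12. All 4 ratios are taken to the same single mock library, so they are not 4 independent repeats. In DICER1 against DROSHA, which leaves out the mock, the medians of targets with and without the 8mer were -0.035 and 0.055. Genes off the list with a miR-17 8mer showed a far smaller tilt. Of these 651 genes 22.1% lay above the mock in all 4 libraries and 14.4% below, where 19.1% and 19.4% of the 11400 other genes without one did, and their median over both knockdowns was 0.015 against -0.0074. The list was chosen with earlier results of these data known, so its gap to genes off the list describes the list and is no independent evidence. Leaving out DROSHA siRNA 1 or DROSHA siRNA 2 put 1 target with the 8mer below the mock throughout, and leaving out DROSHA siRNA 1 put 5 targets without it above throughout. When the shortest annotated UTR was searched, 5 of the 7 targets with an 8mer lay above the mock in all 4 and 0 below. Of the other 30, 10 lay above and 6 below. Of genes off the list, 25.1% with an 8mer there lay above and 15.7% below, and 19.2% and 19.2% of those without. In these shortest UTRs the target medians over both knockdowns were 0.19 with and 0.064 without an 8mer. In DROSHA against mock they were 0.14 and 0.094, so both groups then lay above 0. Some of these UTRs have little room for a match, such as 11 nt in PKD2, 12 nt in HBP1 and 13 nt in PTPN4. The split was chosen after values were seen, and no test was made of it.

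**Figure D3:**
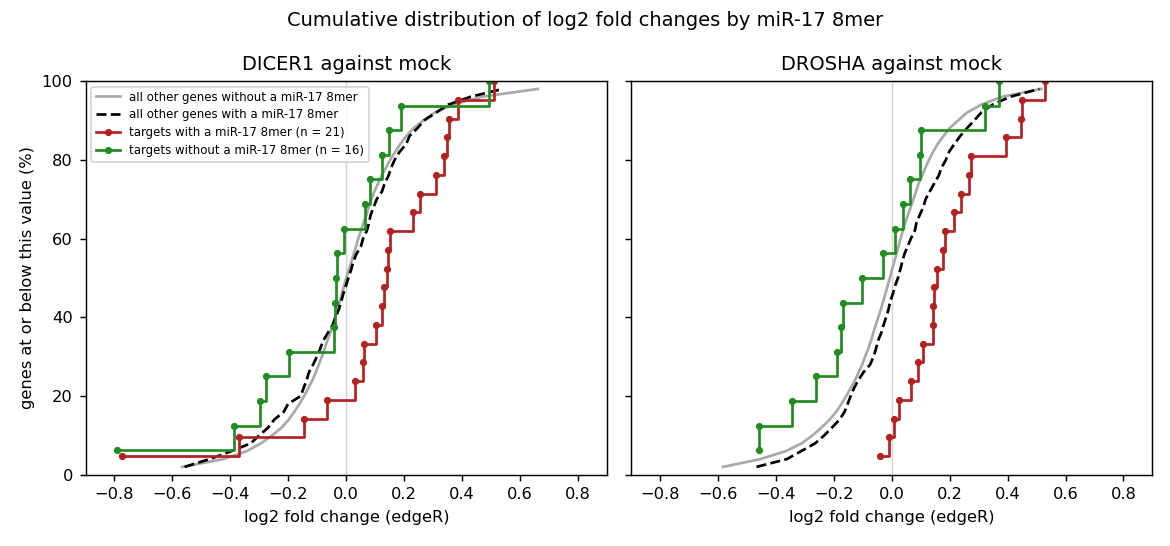
Cumulative share of genes (%, vertical axis) against the edgeR log2 fold change (horizontal axis) for DICER1 against mock (left) and DROSHA against mock (right): targets with (red, 21) and without (green, 16) a miR-17 8mer, and all other genes with (black dashes, 651) and without one (grey, 11400). The red steps lie right of both curves of other genes over most of their range, with medians of 0.14 and 0.16, and the green steps do not.

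The pocket protein RBL2 (p130), which holds E2F target genes silent in resting cells, gave near-equal values in the 4 siRNA libraries. It stood at 120.2 CPM in the mock, 149 in both DICER1 siRNA libraries, and 146 and 145 in DROSHA siRNA 1 and 2. All 4 siRNA values lay within a narrow band above the mock, 1.24-fold for DICER1 and 1.21-fold for DROSHA (log2 fold change 0.31 ± 0.09 and 0.27 ± 0.09, SE). HBP1, a transcriptional repressor of cell cycle genes, stood at 25.2 CPM in the mock, 27.0 and 32.1 with DICER1 siRNA, and 29.2 and 31.5 with DROSHA siRNA, so it too lay above the mock throughout. E2F3, an activator of S-phase genes, was at 135 CPM in the mock and between 126 and 143 in the others, on both sides of it. ARID4B, an RB-binding chromatin protein, was at 100.1 CPM in the mock, with 106 and 112 after DICER1 siRNA and 91.0 and 105 after DROSHA siRNA.

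BCL2L11 encodes BIM, which triggers cell death by binding the survival proteins of its family. It had 64.1 CPM in the mock, 76.2 and 77.6 with the first siRNA against DICER1 and DROSHA, but 64.1 with the second siRNA against each. The values of the siRNA 2 libraries equalled the mock to 3 digits, so its place among the genes above the mock throughout rests on a negligible margin. Its log2 fold change was 0.13 ± 0.16 and 0.15 ± 0.16 (SE) and became -0.0021 when DICER1 siRNA 1 was left out and -0.0027 when DROSHA siRNA 1 was. TP53INP1, a stress protein induced by p53, ran the other way, at 15.8 CPM in the mock, 13.2 and 12.5 with DICER1 siRNA, and 14.6 and 10.2 with DROSHA siRNA. TUSC2, a candidate tumour suppressor, was at 56.6 CPM in the mock, 70.9 and 77.0 with DICER1 siRNA, and 65.8 and 46.5 with DROSHA siRNA. Only DROSHA siRNA 2 placed TUSC2 below the mock. Without DROSHA siRNA 1 the log2 fold change of TUSC2 in DICER1 against DROSHA was 0.67. That fit assumes that the lone DROSHA library varies like the other groups, so only log2 fold changes of targets are given from it.

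Of the 6 targets in the TGF-beta and BMP pathway, the type II receptor TGFBR2 was the only one with a miR-17 8mer and the only one above the mock in all 4 libraries. It stood at 25.9 CPM in the mock, 30.5 and 27.1 with DICER1 siRNA, and 28.1 and 30.6 with DROSHA siRNA (log2 fold change 0.15 ± 0.15 and 0.18 ± 0.15, SE). The SMAD genes, which carry the signal to the nucleus or block it, lay mostly below the mock. SMAD4, the partner shared by all signalling SMADs, was at 97.2 CPM in the mock, 84.7 and 84.9 with DICER1 siRNA, and 88.1 and 52.9 with DROSHA siRNA. DROSHA siRNA 2 was the low library for SMAD4. Its log2 fold change in DROSHA against mock was -0.46 ± 0.26 (SE, edgeR adjusted p = 0.978), and -0.88 when DROSHA siRNA 1 was left out. DICER1 against DROSHA then gave 0.68. Both values without DROSHA siRNA 1 rest on the low DROSHA siRNA 2 library alone.

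SMAD5, which relays BMP signals, was at 228 CPM in the mock, 164 and 213 with DICER1 siRNA, and 194 and 138 with DROSHA siRNA, again below the mock in all 4 and lowest with DROSHA siRNA 2. The inhibitory SMAD7 was at 33.1 CPM in the mock, 32.1 and 32.5 with DICER1 siRNA, and 28.0 and 30.9 with DROSHA siRNA, a small shift. Its relative SMAD6 was at 17.6 CPM in the mock and between 15.4 and 18.4 in the siRNA libraries. The BMP type II receptor BMPR2 was at 76.5 CPM in the mock, higher with both DICER1 siRNAs (84.3 and 90.1) and on both sides of it with DROSHA siRNA (68.5 and 85.8). An antisense gene overlaps SMAD5 exons, and the sources used here do not state a strand setting for the counting. By exon position 15 of the 37 targets overlap a gene on the other strand, 8 of them a gene tested here. These 8 are RBL2, ZNFX1, PKD1, SQSTM1, ARID4B, NCOA3, HBP1 and PHLPP2, and SMAD5 is not among them.

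**Figure D4:**
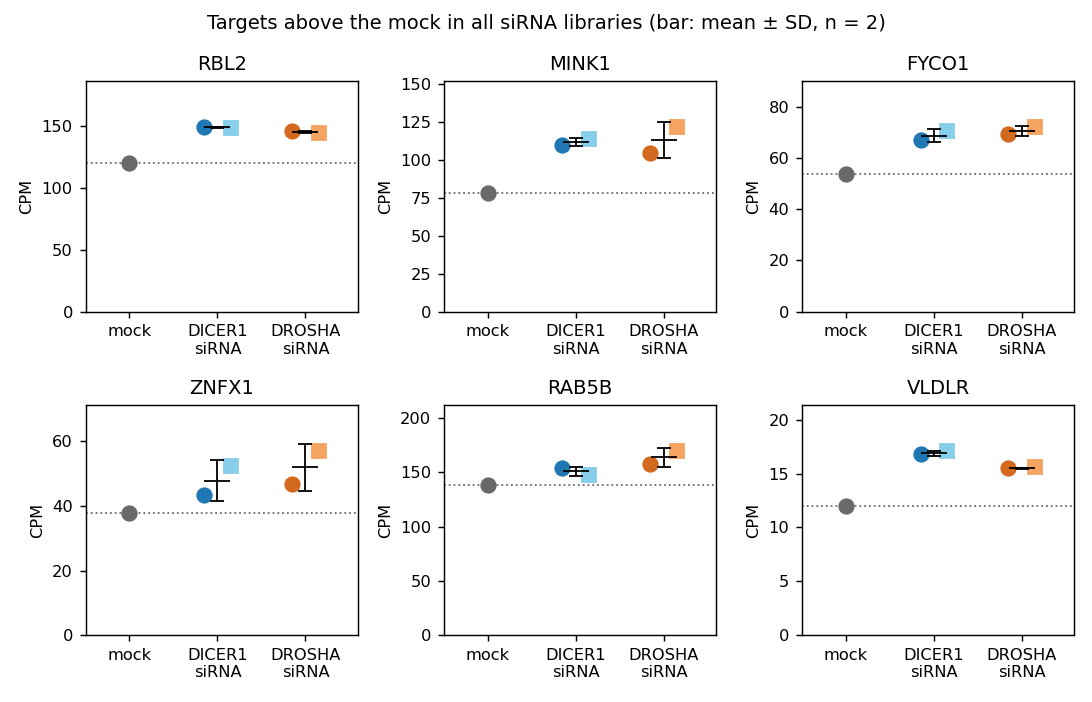
CPM (vertical axis, from 0) of 6 targets above the mock in all siRNA libraries, by group; circles are the mock and siRNA 1, squares siRNA 2, bars the mean ± SD of 2 libraries, and the dotted line the mock. RBL2 and VLDLR have near-equal values within each pair, while ZNFX1 spreads in both pairs and MINK1 spreads more with DROSHA siRNA.

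ZNFX1, a helicase-type RNA-binding protein with 2 miR-17 8mers, lay above the mock throughout. It stood at 37.9 CPM in the mock, 43.3 and 52.3 with DICER1 siRNA, and 46.8 and 57.0 with DROSHA siRNA (log2 fold change 0.34 ± 0.18 and 0.45 ± 0.18, SE). In both pairs siRNA 2 gave the higher ZNFX1 value. EZH1, a histone H3 lysine 27 methyltransferase that also holds 2 miR-17 8mers, was at 43.5 CPM in the mock and at 43.8, 49.6, 46.8 and 45.8 in the siRNA libraries, the lowest of which was close to the mock. STAT3, a transcription factor downstream of cytokine receptors, has no miR-17 8mer. It stood at 139 CPM in the mock, 119.9 and 92.9 with DICER1 siRNA, and 131 and 113 with DROSHA siRNA, below the mock in all 4 and lowest with DICER1 siRNA 2.

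The nuclear receptor coactivator NCOA3 lay below the mock with both DICER1 siRNAs. It stood at 68.9 CPM in the mock, 54.5 and 52.1 with DICER1 siRNA, and 61.6 and 77.0 with DROSHA siRNA, so the DICER1 pair lay below all other libraries although the gene holds a miR-17 8mer. Its log2 fold change in DICER1 against DROSHA was -0.38 ± 0.12 (SE, edgeR adjusted p = 0.525), and -0.53 without DROSHA siRNA 1. RUNX1, a regulator of blood development, varied little, with 43.5 CPM in the mock and 39.9 to 46.7 in the siRNA libraries.

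MINK1, a STE20 kinase upstream of JNK signalling, showed the largest upward difference of the list. It stood at 78.5 CPM in the mock, 109.8 and 114 with DICER1 siRNA, and 105 and 122 with DROSHA siRNA, so the siRNA libraries did not overlap the mock and the 2 knockdowns overlapped each other. The log2 fold change was 0.51 ± 0.12 for DICER1 and 0.53 ± 0.12 for DROSHA (SE), 1.42-fold and 1.44-fold, with edgeR adjusted p = 0.865 and 0.978. Without DROSHA siRNA 1 its log2 fold change was 0.63 in DROSHA against mock and 0.57 in both knockdowns against mock. That fit keeps 1 DROSHA library, which is assumed to vary like the other groups. MINK1 has 1 miR-17 8mer in a UTR of 767 nt.

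MKNK2, a kinase that phosphorylates the translation factor eIF4E, lay above the mock with both DROSHA siRNAs. It stood at 142 CPM in the mock, 155 and 135 with DICER1 siRNA, and 182 and 204 with DROSHA siRNA, and both DROSHA values exceeded all others. Its log2 fold change in DICER1 against DROSHA was -0.42 ± 0.10 (SE, edgeR adjusted p = 0.443, the smallest of any target), and -0.50 without DROSHA siRNA 1. PHLPP2, a phosphatase that removes an activating phosphate from AKT, was at 44.5 CPM in the mock, 45.7 and 48.4 with DICER1 siRNA, and 55.6 in both DROSHA siRNA libraries. PHLPP2 has 8mers for miR-19 and miR-92 but none for miR-17. Its relative PHLPP1, which holds no seed match, was at 55.3 CPM in the mock and 54.4 to 64.2 in the others.

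HIPK3, a nuclear serine-threonine kinase, was the lowest target relative to the mock in DROSHA siRNA 2. It stood at 67.0 CPM in the mock, 44.6 and 32.8 with DICER1 siRNA, and 81.3 and 29.8 with DROSHA siRNA. The DROSHA libraries lay on opposite sides of the mock, and the log2 fold change was -0.26 ± 0.49 (SE). With DROSHA siRNA 1 left out it was -1.17, which rests on DROSHA siRNA 2 alone. The other signalling targets stayed close to the mock. MAPK9 (JNK2) was at 122 CPM in the mock and 118 to 128 in the siRNA libraries, MAP3K2, which acts upstream of MAP kinases, at 65.2 and 64.6 to 76.1, and the cofilin kinase LIMK1 at 38.9 and 35.3 to 44.5. The tyrosine phosphatase PTPN4 was at 29.3 CPM in the mock, 28.7 and 24.3 with DICER1 siRNA, and 30.2 and 29.3 with DROSHA siRNA.

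**Figure D5:**
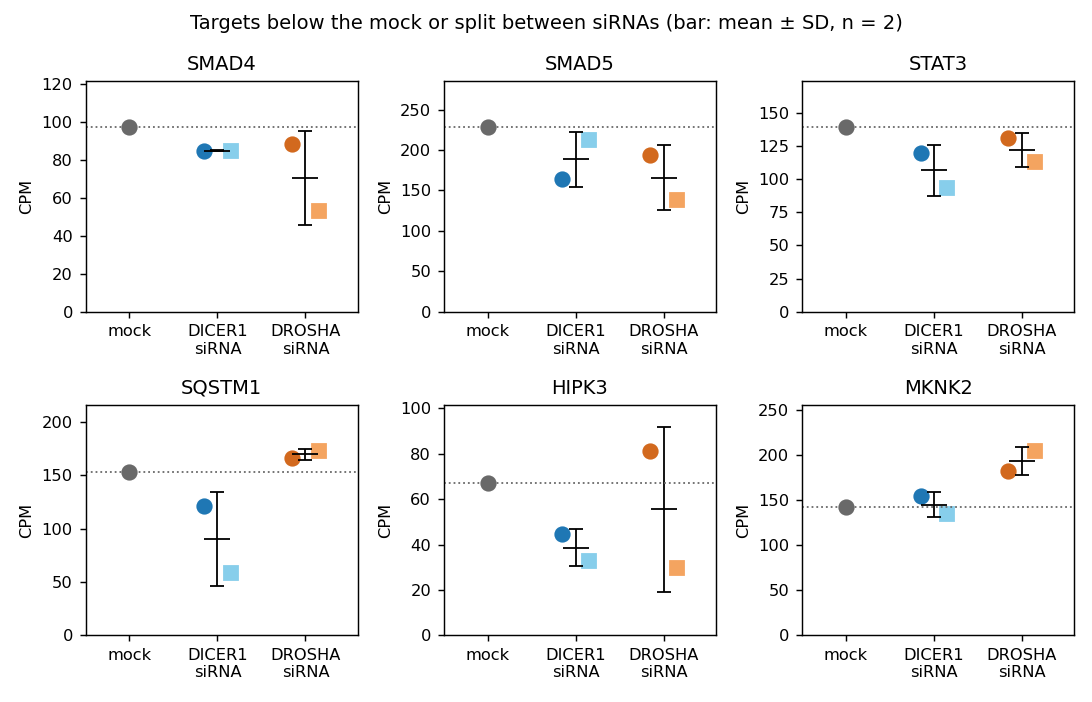
CPM (vertical axis, from 0) of 6 targets below the mock or split between siRNAs, by group; circles are the mock and siRNA 1, squares siRNA 2, bars the mean ± SD of 2 libraries, and the dotted line the mock. SMAD4 and HIPK3 are low in DROSHA siRNA 2 (52.9 and 29.8), SQSTM1 is low in DICER1 siRNA 2 (58.8), and MKNK2 is above the mock with both DROSHA siRNAs.

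In the autophagy and endosome group, 4 of 5 targets lay above the mock in all 4 libraries, where 19.4% of all tested genes did. Among autophagy genes that are not on the list, 5 of 31 (16.1%) did so. All 5 targets of this group hold a miR-17 8mer, and of all targets with one 61.9% did so. The group and the 8mer thus cannot be told apart here. FYCO1, which links autophagosomes to kinesin on microtubules, was at 53.8 CPM in the mock, 66.9 and 70.5 with DICER1 siRNA, and 69.2 and 72.0 with DROSHA siRNA (log2 fold change 0.35 ± 0.11 and 0.39 ± 0.11, SE). The pairs were tight and overlapped each other. RAB5B, a GTPase of early endosomes, was at 139 CPM in the mock, 154 and 148 with DICER1 siRNA, and 158 and 169.9 with DROSHA siRNA. ULK1, the kinase that starts autophagy, with 8mers for both miR-17 and miR-19, was at 72.9 CPM in the mock, 88.2 and 85.9 with DICER1 siRNA, and 85.6 and 75.3 with DROSHA siRNA. ZFYVE26, a protein of late endosomes and lysosomes, was at 38.9 CPM in the mock, 40.2 and 45.6 with DICER1 siRNA, and 45.5 and 43.0 with DROSHA siRNA.

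SQSTM1 (p62), the autophagy receptor for ubiquitinated cargo, was the exception. It stood at 154 CPM in the mock, 121 and 58.8 with DICER1 siRNA, and 166 and 173 with DROSHA siRNA. Both DICER1 libraries lay below the mock and both DROSHA libraries above it, and DICER1 siRNA 2 gave the lowest value by a wide margin. The log2 fold change was -0.77 ± 0.34 for DICER1, 0.14 ± 0.35 for DROSHA, and -0.92 ± 0.29 for DICER1 against DROSHA (SE, edgeR adjusted p = 0.865, 0.989 and 0.523). The gene holds a miR-17 8mer, printed above, and the heptamer AATCTAA lies within the same 30 bases.

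Of the 5 membrane and surface proteins, VLDLR, a lipoprotein and reelin receptor, was highest over the mock. It stood at 12.0 CPM in the mock, 16.8 and 17.1 with DICER1 siRNA, and 15.5 and 15.6 with DROSHA siRNA (log2 fold change 0.49 ± 0.16 and 0.37 ± 0.16, SE), with pairs that did not overlap each other or the mock. VLDLR has 3 shorter miR-17 matches but no 8mer. The polycystin PKD1 was at 86.1 CPM in the mock, 94.2 and 95.8 with DICER1 siRNA, and 87.8 and 92.7 with DROSHA siRNA. PKD1 has near-identical pseudogene copies, so its counts are uncertain. Its channel partner PKD2 was at 37.5 CPM in the mock, 38.5 and 33.1 with DICER1 siRNA, and 39.7 and 47.4 with DROSHA siRNA, on both sides of it. ENPP5, a membrane protein with 2 miR-17 8mers, had the fewest counts of the list, at 4.88 CPM in the mock, 6.15 and 6.26 with DICER1 siRNA, and 5.17 and 5.74 with DROSHA siRNA. CRIM1, a BMP-binding transmembrane protein, was at 42.7 CPM in the mock and at 41.4, 41.6, 40.6 and 38.9 in the siRNA libraries, just below it in all 4.

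Several low values stood in 1 siRNA library, and 3 heptamers in the UTRs are set beside them. The 3 were picked because genes that hold them were low in single libraries of these same data, so they are no independent evidence here. AATCTAA stood in 9 targets (24.3%, against 13.3% of all genes), and 5 of the 9 lay below the mock in both DICER1 libraries (STAT3, SQSTM1, NCOA3, PTPN4 and HIPK3), against 5 of the other 28. Among all genes 57.8% with it and 33.2% without it did so. AATCTAA was not tied to 1 library. Of all genes with it, 66.5% lay below the mock in DICER1 siRNA 1 and 70.8% in DICER1 siRNA 2. The shares without it were 48.0% and 46.0%. In DROSHA siRNA 1 the shares with and without it were 62.0% and 49.3%, and in DROSHA siRNA 2 51.6% and 49.8%. SQSTM1, NCOA3 and PTPN4 were also the 3 targets with a miR-17 8mer that lay below the mock in both DICER1 libraries. The 9 targets had a median log2 ratio of -0.029 in DICER1 siRNA 1, against 0.090 for the others. In DICER1 siRNA 2 it was -0.27, against 0.12. In DROSHA siRNA 1 it was 0.11, against 0.089, and in DROSHA siRNA 2 0.16, against 0.10. ATAGAAT stood in 8 targets (21.6%, against 15.7% of all genes), of which 6 (75%) lay below the mock in DROSHA siRNA 1, against 7 of the other 29. The share over all genes with ATAGAAT was similar, 71.7%, and without it 47.2%. GTGACTT stood in 15 targets (40.5%, against 15.7% of all genes), of which 6 (40.0%) lay below the mock in DROSHA siRNA 2, against 4 of the other 22. That share was below those of all genes with GTGACTT (66.5%) and without it (47.0%), and the median log2 ratio of the 15 targets there was 0.0032, against 0.17 for the others. SMAD4, with 3 copies, and SMAD5 and TP53INP1, with 2 each, were among the 6. The part of these heptamers in the results was not tested.

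Related genes were read from 7 lists chosen for their roles, and 0 genes of any list passed edgeR's quasi-likelihood test in any of the 4 comparisons. The counts here leave out the 37 targets and are to be read beside the 19.4% and 19.1% of all tested genes that lay above and below the mock in all 4 siRNA libraries. Of 46 other reported targets of the cluster, 10 lay above (21.7%) and 4 below (8.7%), so fewer lay above throughout than among the 37 (40.5%). Their median log2 fold change was 0.17 in DICER1 against mock, with 27 above in both libraries (58.7%, against 36.7% of all genes), and 0.067 in DROSHA against mock, with 15 above in both (32.6%, against 31.5%). The 3 with the largest F over both knockdowns all lay above the mock: KLF4, a transcription factor that restrains growth in many cells (log2 fold change 0.56), TXNIP, an inhibitor of thioredoxin (0.48), and the ubiquitin ligase subunit FBXO31 (0.32).

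Of 32 other TGF-beta and BMP genes 10 lay above the mock in all 4 libraries and 6 below. The 3 with the largest F were INHBA, a subunit of activin, at 1.31 CPM in the mock and 3.19 to 3.73 with siRNA, ID2, a target of BMP signalling, at 60.3 and 39.3 to 54.6, and the corepressor TGIF1, at 14.2 and 17.7 to 20.0. INHBA and TGIF1 thus lay above the mock in all 4 libraries and ID2 below it. Of 30 other RB and E2F genes 10 lay above and 3 below. LIN52, of the complex that RBL2 joins, had a log2 fold change over both knockdowns of 0.51, TFDP1, the partner of E2F proteins, -0.19, and the CDK inhibitor CDKN1B 0.18. Of 14 other BCL2 family genes 5 lay above and 2 below, with 0.43 for the BH3-only gene BBC3, 0.26 for the pore-forming BAK1 and -0.19 for the survival gene BCL2L1. Of 31 other autophagy genes 5 lay above and 3 below, of 16 PI3K and AKT genes 3 and 4, and of 17 MAPK and JNK kinases 3 and 3, all close to the shares of all genes or under them except the PI3K and AKT genes below the mock (25%).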

How the data were processed

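The authors deposited raw read counts per gene symbol, whole numbers with no normalization; CASAVA 1.8.2, STAR, HTSeq, edgeR and build hg19 are named in the submitters' processing notes, and no source used here states a strand setting. All 5 columns were matched to samples by name, with 0 unused. A gene was kept at 1 CPM or more in 2 or more libraries (12234, holding 99.93% of reads). edgeR 4.0.16 in R 4.3.3 fitted 3 groups by TMM scaling and the quasi-likelihood test, with Benjamini-Hochberg adjustment over all genes tested and a threshold of 0.05. The mock is 1 library, so the spread rests on 2 residual degrees of freedom. SE is the absolute log2 fold change over the root of the F statistic. DESeq2 1.42.0, edgeR's likelihood ratio test, other scalings, other filters and leaving out each siRNA library were alternatives. The steps were tested on simulated data. Seeds came from RefSeq. UTRs came from GENCODE 29 on GRCh38, for genes whose longest UTR had at least 50 nt. No minimum was set for the shortest UTR. Target coordinates are on that build, not on hg19. Members and lists were chosen with earlier results of these data known. All 37 targets were named, with every library's value for those on one side of the mock in all 4 siRNA libraries and for the 8 with the largest F. From each related list up to 3 genes by F could be named. MIR17HG was not analysed here.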

Additional observations from a re-analysis of the deposited data

Results flagged for a closer look

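For 2 targets the knockdowns lay on opposite sides of the mock, both DICER1 libraries below it and both DROSHA libraries above it. SQSTM1 differed by -0.92 (log2, DICER1 against DROSHA), with 58.8 CPM in DICER1 siRNA 2 as its lowest library and 173 in DROSHA siRNA 2 as its highest. PTPN4 differed by -0.17, and its DROSHA siRNA 2 value equalled the mock to 3 digits (29.3 CPM), so its split rests on DICER1 siRNA 2 at 24.3 CPM. Neither difference passed edgeR's quasi-likelihood test (adjusted p = 0.523 and 0.743).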

How the results depend on the processing

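With 1 siRNA library left out in turn, the median log2 fold change of the 37 targets ranged from 0.060 to 0.083 in DICER1 against mock, from 0.064 to 0.096 in both knockdowns against mock and from -0.016 to 0.024 in DICER1 against DROSHA. Targets were called only without DROSHA siRNA 1, where the lone DROSHA library has no spread of its own. Targets with both DROSHA libraries below the mock ranged from 7 to 13, and those with both DICER1 libraries above or below both DROSHA libraries from 11 to 17 and from 11 to 15; fewer libraries make such counts larger by construction. Targets with a miR-17 8mer that lay below the mock throughout ranged from 0 to 1, and those without one that lay above from 2 to 5. These counts, and their values of 5 and 10 in the shortest annotated UTR for targets with and without an 8mer above the mock, were added after the data were seen. Scaling by library totals alone gave medians of 0.100 and 0.114 for DICER1 and DROSHA. Any seed match remained in 16 targets in the shortest UTR. BCL2L11 ranged from -0.0021 (without DICER1 siRNA 1) to 0.25 in DICER1 against mock and from -0.0027 (without DROSHA siRNA 1) to 0.28 in DROSHA against mock, and the cause was not tested. Whether the siRNA numbers pair the libraries is not stated, and the main fit did not use them so. The correlation of deviations was 0.024 across genes, which cannot decide this, as the numbers also name different siRNA molecules. A replicate block on the numbers called 0 targets in DICER1 against DROSHA, with a median of -0.016. Of all genes it called 4, against 2 without the block. All-gene counts over 1.5 times the main ones (1, 1, 1 and 2) also came from DESeq2 (5, 2 and 24 in DICER1, both knockdowns and DICER1 against DROSHA), the likelihood ratio test (29, 3, 7 and 130 in the 4 comparisons) and no filter (3 in DICER1 and 12 in DICER1 against DROSHA). With 1 library left out the all-gene counts ranged from 0 to 5 in DICER1 against mock, 1 to 225 in DROSHA against mock, 0 to 46 in both knockdowns and 1 to 427 in DICER1 against DROSHA. Without DROSHA siRNA 2 they were 4, 4, 1 and 18. Each fit with 1 library left out keeps a lone library in that knockdown, which is assumed to vary like the other pair. Depth limited ENPP5 most, which rested on 41 to 52 counts per library.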
